A study of Caenorhabditis elegans with 4 samples.

Results

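The genes described here are 4 protein phosphatase genes and 3 kinase genes of the nematode Caenorhabditis elegans, 7 of the 20535 genes listed in each library. They were chosen by name and found by their WormBase gene IDs, and all 7 were matched and tested. The phosphatases gsp-1, gsp-2, gsp-3 and gsp-4 encode catalytic subunits of protein phosphatase 1 (PP1), and the kinases gskl-1, gskl-2 and gsk-3 belong to the glycogen synthase kinase 3 (GSK3) family. gsp-3, gsp-4, gskl-1 and gskl-2 are the sperm paralogs, and gsp-1, gsp-2 and gsk-3 are the general paralogs, used across many tissues.

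RNA of whole animals was sequenced in 2 strains. VL1080 carries mccc-1(ww4) on chromosome IV together with wwIs24[acdh-1p::GFP + unc-119(ed3)], and its control VL749 carries wwIs24[acdh-1p::GFP + unc-119(ed3)] alone, so both strains hold a reporter in which the acdh-1 promoter drives green fluorescent protein. The product of mccc-1 is part of methylcrotonyl-CoA carboxylase, which breaks down leucine. Each strain has 2 libraries, named as biological replicates and made from at least 200 animals that had eaten Comamonas aquatica DA1877 and were 70 h past hatching at 20 °C, the young adult stage. Animals of both strains had been bleached and held for 20 h in arrest at the first larval stage (L1) to synchronize them. The comparison asks how mccc-1(ww4) changes gene expression. Nothing states that the 2 libraries of a strain came from separate cultures, so the p-values reflect library-to-library spread that could be technical in part.

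PP1 removes phosphate groups from serine and threonine residues, and its catalytic subunit is directed to its substrates by regulatory subunits. In C. elegans GSP-3 and GSP-4 are made in the male germ line and in hermaphrodite sperm, where they act in chromosome segregation and in the motility of the crawling sperm cell, which is driven by major sperm protein (MSP) rather than actin. GSP-2 acts in meiotic chromosome cohesion in oocytes through LAB-1 and against the Aurora kinase AIR-2, and GSK-3 acts in Wnt signalling and in the turnover of the oocyte protein OMA-1. A hermaphrodite makes a limited set of sperm before it turns to oocytes, so RNA of whole adults holds transcripts of both.

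Values are FPKM, which scale a gene's fragments for its length and for the size of the library, so levels may be compared between genes. They summed to 741399 and 770579 in the mccc-1(ww4) libraries and to 786436 and 780720 in the control libraries. The labels state no depth. From the spacing of the lowest values, 1 fragment of a transcript of about 1 kb was worth 0.0871 and 0.0851 FPKM in the mccc-1(ww4) libraries and 0.0848 and 0.0842 FPKM in the control libraries, an approximation. The mccc-1 transcript itself stood at 100.43 and 100.33 FPKM in mccc-1(ww4) and at 104.19 and 105.26 FPKM in control; the lesion of ww4 is not given in the labels, so this level does not check them.

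Of the 4 sperm paralogs, 3 fell in mccc-1(ww4) and the other, gskl-1, did not pass the test, while none of the 3 general paralogs passed it. The summed pair gsp-3 and gsp-4 was 3.29-fold lower and the summed pair gskl-1 and gskl-2 was 4.74-fold lower, as ratios of mean FPKM. The test was limma on log2(FPKM + 1) over 13091 genes, with a Benjamini-Hochberg adjusted p under 0.05 as the threshold. Of all tested genes, 8.36% changed and 7.3% fell by this rule. gsp-3, gsp-4 and gskl-2 also passed when each of the 4 libraries was left out in turn; such a fit has 1 library in a strain, takes the spread from the other strain and assumes that the lone library varies like it. The calls were lost when genes below 1 FPKM were tested as well, where 4 genes of the whole table passed.

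**Figure D1:**
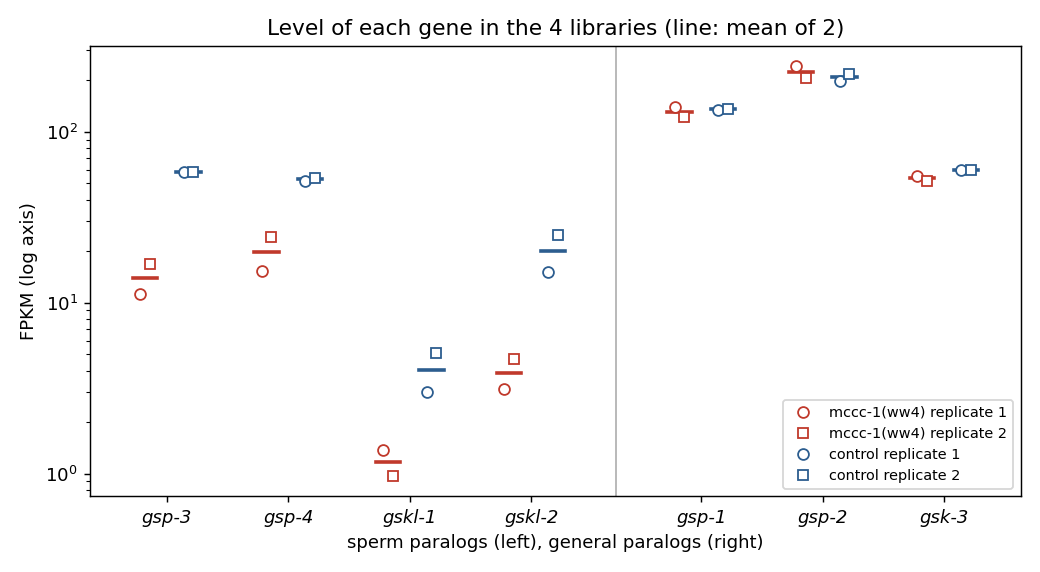
FPKM on a log axis for the 4 sperm paralogs (left of the grey line) and the 3 general paralogs (right), with mccc-1(ww4) left of control for each gene, 1 point for each library and a line at the mean of 2. Both mccc-1(ww4) points lie under both control points for every sperm paralog and for gsk-3, and the points of the strains overlap for gsp-1 and gsp-2.

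gsp-3 (WBGene00021113; chromosome I, 4709259 to 4710712, reverse strand, protein-coding, Ensembl annotation of WBcel235) stood at 11.17 and 16.82 FPKM in the mccc-1(ww4) libraries and at 58.18 and 58.33 FPKM in the control libraries. The control libraries were almost equal, and the mccc-1(ww4) libraries lay far below them and apart from each other. The means were 13.995 ± 3.995 FPKM in mccc-1(ww4) and 58.3 ± 0.106 FPKM in control (SD, n = 2 each), and gsp-3 fell by 2.01 on the log2 scale (SE 0.20, 95% interval -2.50 to -1.52, limma adjusted p = 0.00687). Of all tested genes, 0.581% had a log2 fold change as low or lower.

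gsp-4 (WBGene00020187; chromosome I, 3838237 to 3839673, reverse strand, protein-coding) is the close paralog of gsp-3 and lies 0.87 Mb from it on the same strand. Its level was 15.35 and 24.15 FPKM in mccc-1(ww4) and 51.58 and 53.76 FPKM in control. Here too the strains did not overlap, and mccc-1(ww4) replicate 2 was the higher of its pair, as for gsp-3. The means were 19.75 ± 6.22 FPKM in mccc-1(ww4) and 52.67 ± 1.54 FPKM in control (SD, n = 2 each), a fall by 1.40 on the log2 scale (SE 0.22, 95% interval -1.92 to -0.89, limma adjusted p = 0.0155). The coding sequences of gsp-3 and gsp-4 have the same annotated length, 915 nt.

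Because the products of gsp-3 and gsp-4 are nearly alike, reads may have been divided between them by the authors' quantification, and their sum is the safer value. The sum was 26.52 and 40.97 FPKM in mccc-1(ww4) and 109.76 and 112.09 FPKM in control, and fell by 1.72 on the log2 scale when tested as 1 row in place of both genes (SE 0.21, 95% interval -2.21 to -1.23, limma adjusted p = 0.00926). gsp-3 made up 42.12% and 41.05% of the sum in mccc-1(ww4) libraries and 53.01% and 52.04% in control libraries. Thus gsp-4 was the higher of the pair in both mccc-1(ww4) libraries and gsp-3 in both control libraries. The spread within each strain was under 1 percentage point (SD 0.753 in mccc-1(ww4) and 0.684 in control). An exact permutation test over 4 libraries, two-sided, gave p = 0.333, the smallest that 2 against 2 allows, and how far shared reads enter this split was not tested.

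gskl-2 (WBGene00007977; chromosome I, 8749616 to 8751358, reverse strand, protein-coding) had 3.12 and 4.67 FPKM in mccc-1(ww4) and 15.12 and 24.86 FPKM in control. The strains did not overlap, though control replicate 2 stood well above control replicate 1. The means were 3.895 ± 1.096 FPKM in mccc-1(ww4) and 19.99 ± 6.89 FPKM in control (SD, n = 2 each), 5.13-fold lower. gskl-2 fell by 2.08 on the log2 scale (SE 0.30, 95% interval -2.79 to -1.37, limma adjusted p = 0.0131).

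gskl-1 (WBGene00010991; chromosome II, 10947559 to 10949263, forward strand, protein-coding) was the lowest of the 7 genes, at 1.38 and 0.97 FPKM in mccc-1(ww4) and at 3.0 and 5.05 FPKM in control. By the spacing of low values these levels rest on about 19 and 14 fragments in mccc-1(ww4) and on about 43 and 73 fragments in control. The strains did not overlap, but the log2 fold change of -1.18 (SE 0.30, 95% interval -1.90 to -0.46) missed the threshold (limma adjusted p = 0.0644). Over 14 alternative settings the adjusted p ran between 0.0125 and 0.304 and 4 of them passed, among them the fit without control replicate 1 (limma adjusted p = 0.0256). At this level the pseudocount of 1 also shrinks the fold change: the ratio of mean FPKM was 0.292.

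Summed, gskl-1 and gskl-2 had 4.50 and 5.64 FPKM in mccc-1(ww4) and 18.12 and 29.91 FPKM in control, and the sum fell by 2.01 on the log2 scale (SE 0.27, 95% interval -2.66 to -1.35, limma adjusted p = 0.0120). gskl-2 gave most of the sum in every library, with 69.3% and 82.8% in mccc-1(ww4) and 83.4% and 83.1% in control. The mccc-1(ww4) libraries differed from each other in this share by more than the strains' means did.

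The general phosphatases were the highest of the 7 genes. gsp-2 (WBGene00001748; chromosome III, 7336587 to 7338765, forward strand, protein-coding) stood at 241.09 and 205.15 FPKM in mccc-1(ww4) and at 198.45 and 218.53 FPKM in control. The strains overlapped, and the log2 fold change was 0.09 (SE 0.14, 95% interval -0.23 to 0.42, limma adjusted p = 0.763). gsp-1 (WBGene00001747; chromosome V, 10682422 to 10686537, forward strand, protein-coding) stood at 139.83 and 122.25 FPKM in mccc-1(ww4) and at 134.10 and 135.82 FPKM in control. Its strains overlapped as well, with a log2 fold change of -0.05 (SE 0.12, 95% interval -0.34 to 0.25, limma adjusted p = 0.883). The sign of the difference was not stable for either gene: it turned in 2 of 15 alternative settings for gsp-1 and in 1 of 15 for gsp-2.

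gsk-3 (WBGene00001746; chromosome I, 12819216 to 12825602, forward strand, protein-coding) had 54.87 and 51.73 FPKM in mccc-1(ww4) and 59.33 and 59.63 FPKM in control. The strains did not overlap, but the gap was small, and the log2 fold change of -0.16 (SE 0.12, 95% interval -0.45 to 0.14) did not pass the test (limma adjusted p = 0.534). With gsk-3, 5 of the 7 genes were lower in both mccc-1(ww4) libraries than in both control libraries; the same held for 23.2% of all tested genes. The intervals of gsp-1, gsp-2 and gsk-3 end at -0.34, -0.23 and -0.45, so a fall as deep as the estimate for any sperm paralog lies outside them, though a smaller difference does not.

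**Figure D2:**
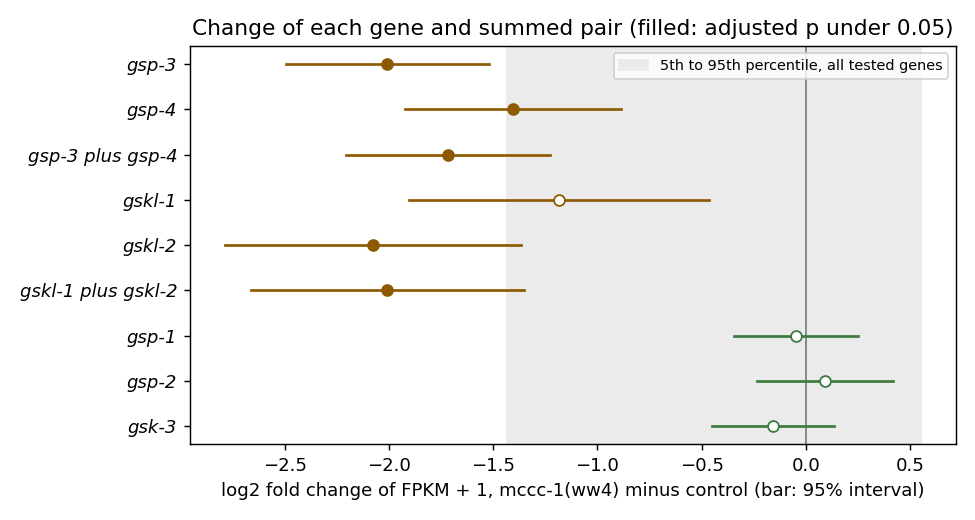
Log2 fold change of FPKM + 1, mccc-1(ww4) minus control, with its unadjusted 95% interval for each gene and for the 2 summed pairs; filled points passed the test and the grey band holds the 5th to 95th percentile of all tested genes, -1.43 to 0.55. gsp-3, gskl-2 and both sums lie left of the band, gsp-4 and gskl-1 lie inside it near its left edge, and the intervals of the general paralogs cover 0.

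The order of the levels differed between the strains. In mccc-1(ww4) it ran gsp-2, gsp-1, gsk-3, gsp-4, gsp-3, gskl-2 and gskl-1, from high to low, and gsp-4 and gsp-3 overlapped over the libraries. In control gsp-3 came before gsp-4, and gsk-3 and gsp-3 were close neighbours, at 59.5 ± 0.212 and 58.3 ± 0.106 FPKM (SD, n = 2 each). In mccc-1(ww4) 50.3% of all tested genes were at or below the mean level of gsp-3, against 84.1% in control. For gskl-2 these shares were 27.1% in mccc-1(ww4) and 57.4% in control, and for gsp-2 they were 96.3% in mccc-1(ww4) and 96.02% in control.

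The difference between sperm and general paralogs was also taken within each library, where any scaling of the whole library cancels. The sum of gsp-3 and gsp-4 was 0.0696 and 0.125 times the sum of gsp-1 and gsp-2 in mccc-1(ww4), against 0.330 and 0.316 times in control. The ratio was 3.32-fold lower in mccc-1(ww4) by the means. For the kinases, gskl-1 and gskl-2 together were 0.0820 and 0.109 times gsk-3 in mccc-1(ww4), against 0.305 and 0.502 times in control, 4.22-fold lower by the means. Neither ratio overlapped between the strains, and an exact permutation test, two-sided, gave p = 0.333 for each, the smallest this design allows. The ratio of gsp-2 to gsp-1 was 1.72 and 1.68 in mccc-1(ww4), against 1.48 and 1.61 in control. This ratio of general paralogs did not overlap either, and the same exact permutation test gave p = 0.333.

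All 25 msp genes taken as sperm markers fell, where 7.3% of all tested genes did (median log2 fold change -1.71, against 0.05 over all tested genes). Their sum was 2461 and 3789 FPKM in mccc-1(ww4) and 9725 and 9226 FPKM in control. Reads may have been divided among the msp genes too, so the 25 calls need not be separate observations. With every gene above 0 FPKM tested, or a minimum of 0.1 FPKM, none of the 25 passed. In these bulk samples fewer sperm and less sperm RNA per cell cannot be told apart. Set against that sum, gsp-3 and gsp-4 together made 10.8 and 10.8 FPKM per 1000 FPKM of msp in mccc-1(ww4), and 11.3 and 12.1 in control. The ratio to msp was thus 1.09-fold lower in mccc-1(ww4), where the level itself was 3.29-fold lower. mccc-1(ww4) replicate 2 was the higher of its pair both in msp and in the phosphatase pair. gskl-1 and gskl-2 together made 1.83 and 1.49 FPKM per 1000 FPKM of msp in mccc-1(ww4) and 1.86 and 3.24 in control, 1.54-fold lower by the means. The strains did not overlap in either ratio to msp, but for the kinases the control libraries lay far apart and control replicate 1 stood close to mccc-1(ww4) replicate 1. An exact permutation test, two-sided, gave p = 0.333 for each, the smallest it can give here. How much of the fall of the sperm paralogs goes with the number of sperm was not tested.

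**Figure D3:**
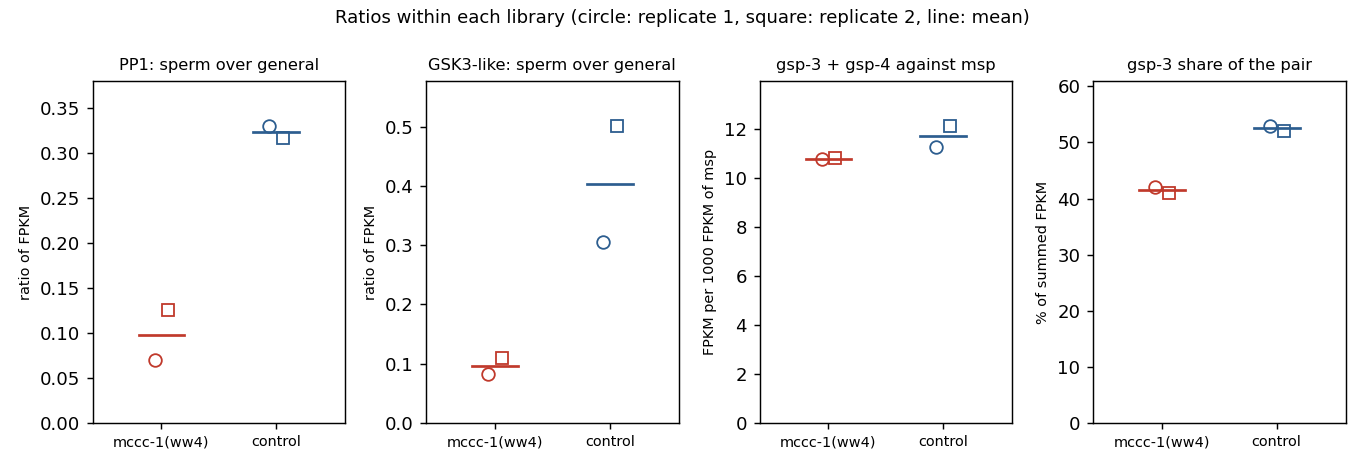
Ratios within each library, with mccc-1(ww4) left of control: sperm over general PP1 genes, sperm over general GSK3-like genes, gsp-3 plus gsp-4 per 1000 FPKM of 25 msp genes, and gsp-3 as a percentage of gsp-3 plus gsp-4. The first and second panels show mccc-1(ww4) under control, the third shows values of 10.8 and 10.8 under 11.3 and 12.1, and the last shows about 42% against about 53%.

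Of 12 oocyte markers 1 rose, spn-4, which encodes an RNA-binding protein of the egg, and 11 did not pass (median 0.46); 4 passed without control replicate 1 and none without any 1 of the other libraries; their sum was 4799 and 5194 FPKM in mccc-1(ww4) and 4322 and 3828 FPKM in control. None of 12 markers of the mitotic and meiotic germ line, 7 of intestine, 7 of body wall muscle or 8 of neurons passed in the fit of all 4 libraries, with medians of -0.01, 0.04, -0.18 and -0.04; without control replicate 1, 2 of the intestine markers rose. With a replicate block added to the fit of all 4 libraries, 3 of the oocyte markers and 1 of the intestine markers rose. With median-of-ratios or upper-quartile factors 0 oocyte markers passed. Of 6 hypodermis markers 3 were tested and 1, the collagen gene col-12, fell. In the fit of all 4 libraries without that block, 139 of all 13091 tested genes rose and 956 fell. None of the marker genes in the files was at 0 in all 4 libraries.

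The genes whose profile over the 4 libraries was most like that of gsp-3 were F58E6.5, T28H11.7 and C38C3.3, out of 13084 genes outside the 7 described. Likeness was the Euclidean distance between centred log2(FPKM + 1) values, 0.126, 0.143 and 0.150 for these genes. F58E6.5 had 11.49 and 17.81 FPKM in mccc-1(ww4) and 58.41 and 65.92 FPKM in control. By the same distance 1.82% of other tested genes were nearer to gsp-3 than gskl-2 was, 3.26% nearer than gsp-4 and 8.75% nearer than gskl-1. For gsp-2 the nearest were Y54E10A.6, B0207.6 and syf-3, at 0.00676, 0.0114 and 0.0132. Such distances rest on 4 libraries only.

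None of 5 regulators of PP1 passed the test, where 8.36% of all tested genes did. Their log2 fold changes ran between 0.09 and 0.21 (median 0.13). szy-2, the inhibitor-2 gene, had one of 0.10, sds-22, a conserved PP1 regulator, 0.21, and mel-11, the targeting subunit of myosin phosphatase, 0.13. lab-1, whose product brings GSP-2 to meiotic chromosomes, had 0.09, and knl-1, a kinetochore gene whose product binds PP1, 0.17. lab-1 stood at 60.75 and 53.57 FPKM in mccc-1(ww4) and at 51.06 and 56.24 FPKM in control, with the strains overlapping. Among 11 genes of chromosome segregation around PP1, which again include lab-1 and knl-1, none passed (median 0.09). The largest differences were 0.37 for bir-1, the survivin gene, and 0.36 for icp-1, the INCENP gene, both partners of AIR-2.

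Of 8 other serine/threonine phosphatase genes none passed either (median 0.07), where 8.36% of all tested genes did. let-92, the catalytic subunit of protein phosphatase 2A, had a log2 fold change of 0.28, tax-6, the calcineurin A gene, -0.10, and pph-5 0.10. pph-4.1 and pph-4.2, which encode protein phosphatase 4, had -0.02 and 0.47, and pph-6 had 0.29. pph-4.2 was nearest to the threshold among them, at 64.11 and 64.60 FPKM in mccc-1(ww4) and 46.95 and 45.57 FPKM in control (limma adjusted p = 0.0674). pph-1 had 0.05. pph-2 had the lowest value of this list, -0.85, at 1.32 and 3.84 FPKM in mccc-1(ww4) and 3.96 and 6.37 FPKM in control, but its mccc-1(ww4) libraries lay far apart (limma adjusted p = 0.293).

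Around GSK-3, 20 of 22 Wnt pathway genes were tested, 1 rose and 19 did not pass (median 0.21). Over all 13091 tested genes 139 rose. mig-5, one of the Dishevelled genes, which relay the Wnt signal, had 47.42 and 41.49 FPKM in mccc-1(ww4) and 29.85 and 26.10 FPKM in control (log2 fold change 0.65, SE 0.15, limma adjusted p = 0.0471). Leaving out any 1 of the 4 libraries ended that call (adjusted p between 0.055 and 0.25). mom-2, a Wnt ligand gene, had the next largest difference, 0.54, and did not pass. The genes of the complex in which GSK-3 acts on catenins, pry-1 (axin), apr-1 (APC) and kin-19 (casein kinase 1), had 0.23, 0.40 and 0.02. cfz-2, a Frizzled receptor gene, and lin-44, a Wnt ligand gene, lay below the filter.

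Of 11 oocyte-to-embryo genes around GSK-3, 1 rose and 10 did not pass, and all 11 estimates were above 0 (median 0.47). Of all 13091 tested genes 139 rose, and their median was 0.05. The 12 oocyte markers, which share oma-1 and oma-2 with this list, had a similar median of 0.46 and no estimate under 0.036. mex-6, a gene for an RNA-binding protein of embryo polarity, had 283.40 and 252.65 FPKM in mccc-1(ww4) and 188.29 and 166.23 FPKM in control (log2 fold change 0.59, SE 0.13, limma adjusted p = 0.0430). This call too was lost without any 1 of the 4 libraries (limma adjusted p between 0.0571 and 0.265). oma-2 had 0.57, oma-1, whose product GSK-3 marks for destruction, 0.38, and mbk-2, the kinase that acts on OMA-1 before GSK-3, 0.36. Among 18 other kinases of the group that holds GSK3 (CMGC), none passed (median 0.20), and the largest differences were 0.48 for cdk-1, the mitotic cyclin-dependent kinase, and 0.36 for cdk-8.

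Of 14 genes of sperm activation, in which a round spermatid becomes a crawling cell, 5 fell and 9 did not pass (median -1.03). Of all tested genes 7.3% fell. spe-19 and spe-43 reached 1 FPKM in the control libraries only, so the filter kept them because control was high, which favours a negative value. The 5 that fell were spe-8, a non-receptor tyrosine kinase gene, spe-12, spe-6, a casein kinase 1 gene, spe-4, a presenilin gene, and spe-46, with log2 fold changes of -1.70, -1.33, -1.07, -1.42 and -1.50. The count was 7 without control replicate 1, 2 without control replicate 2, 1 without mccc-1(ww4) replicate 1 and 2 without mccc-1(ww4) replicate 2, with 12 genes tested in each fit without a control library. It was 2 with quantile normalization and 8 with the replicate block. With every gene above 0 FPKM tested, or a minimum of 0.1 FPKM, it was 0. spe-6, a kinase gene of sperm like the gskl genes, had 4.48 and 4.06 FPKM in mccc-1(ww4) and 9.01 and 11.29 FPKM in control (limma adjusted p = 0.0363). zipt-7.1, a zinc transporter gene in the same list, stood at 36.09 and 33.01 FPKM in mccc-1(ww4) and at 34.08 and 32.34 FPKM in control.

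Of 12 tested genes of fertilization and spermatid organelles, out of 17 listed, 4 fell and 8 did not pass (median -0.98). Of all 13091 tested genes, 956 (7.3%) fell and 139 rose. Among the 4 that fell were spe-11, spe-26 and fer-1, with log2 fold changes of -1.51, -1.70 and -1.12. SPE-11 is a sperm protein needed by the embryo, and FER-1 acts in membrane fusion during activation. spe-9, spe-38, spe-51, spe-36 and fer-1 reached 1 FPKM in the control libraries only. The filter thus kept them because control was high, which favours a negative value and lowers the median. Without control replicate 1 and control replicate 2 the counts were 4 and 1 of the 7 genes then tested, and without mccc-1(ww4) replicate 1 and mccc-1(ww4) replicate 2 they were 1 and 2 of 12. Quantile normalization gave 1, a pseudocount of 0.1 gave 2, a fit with no trend of variance with level gave 6, and the replicate block gave 9. Testing every gene above 0 FPKM, or with a minimum of 0.1 FPKM, gave 0 of 15. Of the 14 tested MSP-domain and ssp genes 9 fell, 1 rose and 4 did not pass (median -1.39), and 7 to 10 fell when each library was left out in turn. None of these 14 passed with every gene above 0 FPKM tested or with a minimum of 0.1 FPKM. msd-2 and msd-4 had log2 fold changes of -1.78 and -1.80, and ssp-19, ssp-9, ssp-34, ssp-31, ssp-10, ssp-33 and ssp-35 of -2.06, -1.81, -1.68, -1.48, -1.42, -1.36 and -1.25. msd-1 was the gene that rose, at 49.36 and 59.80 FPKM in mccc-1(ww4) and at 9.60 and 0.03 FPKM in control, and its value is uncertain where reads were shared with similar msd genes; the call was lost in 11 of 15 alternative settings, with limma adjusted p up to 0.317. Its log2 fold change of 4.07 was 5.75 without control replicate 1 and 2.38 without control replicate 2. spe-44, a transcription factor gene of spermatogenesis, stood at 9.81 and 9.25 FPKM in mccc-1(ww4) and at 10.44 and 9.67 FPKM in control, and did not pass.

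**Figure D4:**
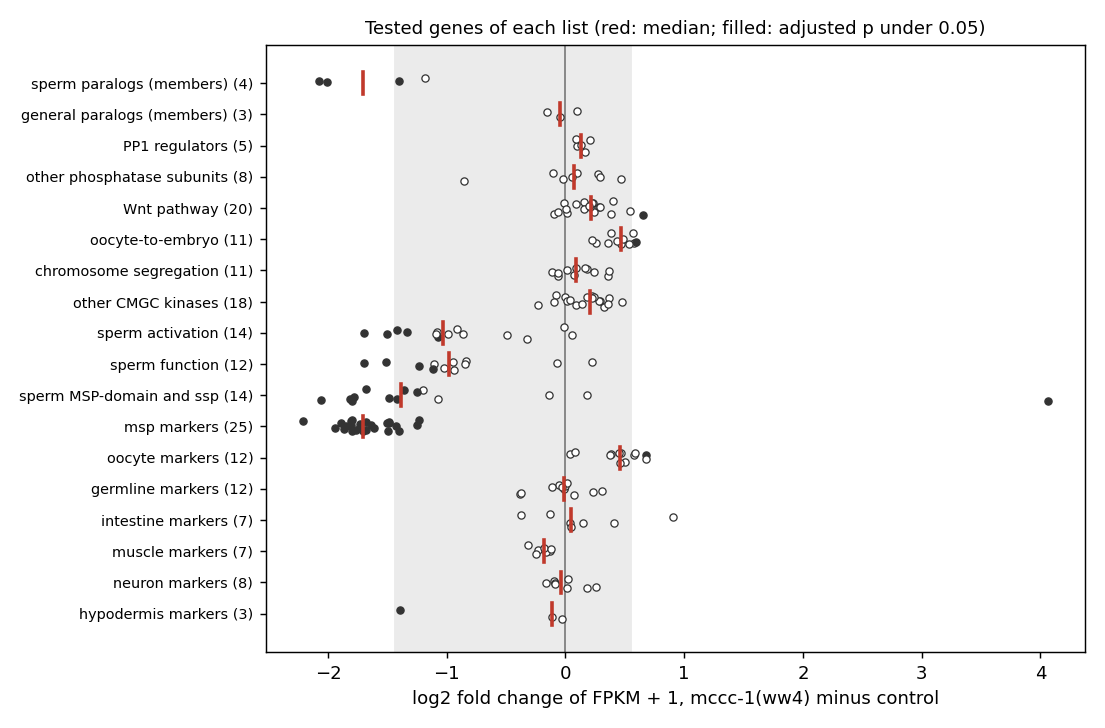
Log2 fold change of FPKM + 1, mccc-1(ww4) minus control, of every tested gene in each list, with the number of tested genes in brackets; filled points passed the test, red lines are medians and the grey band holds the 5th to 95th percentile of all tested genes. The sperm paralogs and the lists of sperm genes lie mostly left of 0, and the general paralogs, PP1 regulators and Wnt genes lie around or right of it; the single point near 4 is msd-1.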

How the data were processed

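Per the file headers the deposited values are FPKM per gene, 1 file per library with 20535 genes. The authors ran Bowtie2 and RSEM, per the submitters' processing notes. No version, genome build, annotation or strandedness is named. RSEM assigns reads that match several genes by a statistical model, which leaves close paralogs uncertain. Symbols were matched for 18776 gene IDs, and coordinates come from the Ensembl release 115 annotation of WBcel235. No sequences are shown, and paralogs found by protein identity were not analysed here.

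A gene was tested if 2 or more libraries reached 1 FPKM. log2(FPKM + 1) values were fitted by limma 3.58.1 under R 4.3.3 (strain as the only factor, moderated variances with an intensity trend, 2 residual and 4.65 prior degrees of freedom), mccc-1(ww4) minus control, Benjamini-Hochberg adjusted over 13091 genes. Fold changes on this scale understate those of low genes; folds named as such are ratios of mean FPKM. For the summed pairs, 1 row replaced both genes and the table was refitted. The spacing estimate used single-transcript genes 950 to 1050 nt long, below 0.6 FPKM. The test was checked on simulated data for this comparison, with variances drawn from the prior that the fit assumes and changes made on the log2(FPKM + 1) scale. Over 13091 genes, 30% of 100 genes changed 2-fold and 80% of 100 genes changed 4-fold on that scale were recovered, with 6 false among 116 calls. For a low gene the same fold in FPKM is a smaller change on that scale. A gene that did not pass may thus still differ.

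The members, the 16 lists, the filter and the tests were chosen with earlier results of these data known. The lists are not separate: lab-1, knl-1, lit-1, mbk-2, oma-1, oma-2, him-3 and htp-3 are each in more than 1. Named were all 7 genes, all members of pathway lists with up to 8 tested genes, those called and the 2 with the largest change in other pathway lists, and the 3 genes nearest to gsp-3 and to gsp-2, except 1 called list gene that is not reported here; other named genes, oma-1, mbk-2, pry-1, apr-1, kin-19, zipt-7.1, spe-44, cfz-2, lin-44, spn-4 and col-12 among them, were added after their values were seen. Alternatives were other pseudocounts, filters, scalings, variance models, a replicate block and leaving out each library.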

Additional observations from a re-analysis of the deposited data

How the results depend on the processing

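Over 15 alternatives (14 for gskl-1, which a minimum of 5 FPKM left untested), gsp-3, gsp-4, gskl-2 and both sums kept their direction in all and their call in 13, and gsp-1, gsp-2 and gsk-3 passed in none. The minimum of 5 FPKM kept gskl-2 through its control libraries only, which favours a negative value. With every gene above 0 FPKM in at least 1 library, or with a minimum of 0.1 FPKM, the limma count of changed genes was 4 in each (3243 and 3188 genes at an unadjusted p under 0.05), and the calls of gsp-3 (-2.01), gsp-4 (-1.40), gskl-2 (-2.08) and the sums (-1.72 for gsp-3 plus gsp-4, -2.01 for gskl-1 plus gskl-2) were lost, with the same log2 fold changes and adjusted p between 0.0695 and 0.117; the cause was not tested. gskl-1 passed with upper-quartile factors (-1.24), robust empirical Bayes (-1.18), the replicate block (-1.18) and without control replicate 1. Leaving out each library in turn gave -1.48 to -0.89 for gskl-1 and 393 to 1324 changed genes, with 465 without control replicate 2, 393 without mccc-1(ww4) replicate 1 and 711 without mccc-1(ww4) replicate 2. Quantile normalization gave 726 changed genes and the replicate block 1803, where the main count is 1095. The labels do not say that the replicate numbers pair libraries; across tested genes the replicate differences within the strains correlated with r = 0.18, with genes as the points. Running these alternatives on the called list genes was decided after the data were seen, and none of those log2 fold changes turned sign. The calls of mig-5, mex-6, spn-4 and msd-1 were lost in 10, 11, 8 and 11 of 15 alternatives, among them at least 2 scalings and the fit with no mean-variance trend, and those of the other called list genes in 2 to 7. Depth limits gskl-1 most, at about 14 to 73 fragments.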
